A study of Mus musculus with 4 samples.

Results

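Promoter peaks of SHP that were present in both treatment groups were examined here. They were selected on the peak calls themselves: a row of the vehicle or FGF19 list was taken when it shared at least 1 bp with a row of the other list and its centre lay within 1 kb of a transcription start site (TSS) of any transcript in the GENCODE M1 annotation of the mouse genome build mm9. In the vehicle list 472 of 1508 rows qualified, in the FGF19 list 473 of 3155, and together 945 of 4663. They merged into 467 regions with such a peak from each group, of which 461 had 1 peak on each side, and 6 further regions in which the centre of the peak of only 1 group lay within 1 kb of a TSS. The nearest gene was protein-coding at 444 of the 467 regions, a lincRNA at 8 and a pseudogene at 7, and the regions belonged to 460 different nearest genes.

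The libraries came from livers of wildtype male C57BL/6 mice aged 8 to 12 weeks that were fasted for 12 h and given vehicle or FGF19 (1 mg/kg) through a tail vein, and livers were taken 2 h later. SHP was precipitated from cross-linked whole liver chromatin, ChIP material from 3 mice was pooled into 1 library per group, and an input library was sequenced for each group. A single ChIP library per group gives no replicate error, so no test between groups was made and the intervals below cover counting error over peaks only. After removal of duplicates the ChIP libraries held 15473647 (vehicle) and 13444078 (FGF19) tags and the inputs 16164473 and 17367587. Markers and gene lists were counted at the 467 regions with a promoter peak of each group. There, Apoa1 and Trf of 11 hepatocyte marker genes had a common promoter peak. None of the 24 markers of the other 5 liver cell types did. With 2.40% of all protein-coding genes at such peaks, lists of this size say little on cell type.

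SHP, encoded by Nr0b2, belongs to the nuclear receptors but lacks their DNA-binding domain. It reaches chromatin through other proteins and lowers transcription through corepressors, and in liver it is best known for damping bile acid synthesis. FGF15 in mice, and FGF19 in humans, is the intestinal hormone that carries the postprandial bile acid signal to hepatocytes through FGFR4 and beta-Klotho. YY1 is a zinc finger factor that binds near the start sites of many housekeeping genes, and ZBTB33 (Kaiso) is a zinc finger factor linked to the CpG-containing palindrome searched for here.

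Sequence matches for YY1 and ZBTB33 were more frequent at common than at FGF19-only promoter peaks, so the promoters that carried them with the highest peaks are shown. All are mm9 sequence read along the strand of the nearest gene, with capitals marking each match. The matches lie within 100 bp of the FGF19 summit, except at Scp2-ps2, Tcf25 and Thap1. There only the vehicle summit had a match within that distance, so these regions do not enter the FGF19 share. The YY1 core was searched as AANATGGC and its reverse complement GCCATNTT. The paper found a longer motif with this core in the SHP peaks. It states that YY1 binds that motif and that SREBP-2 has been assigned it too. Which factor binds the matches was not tested. At Lemd2, which encodes an inner nuclear membrane protein, and at Prkcsh, which encodes the beta subunit of glucosidase II, 2 cores lay within 100 bp of the FGF19 summit, and the summit windows chr17:27341443-27341643 (minus strand) and chr9:21807237-21807437 (plus strand) hold no annotated exon:
Lemd2: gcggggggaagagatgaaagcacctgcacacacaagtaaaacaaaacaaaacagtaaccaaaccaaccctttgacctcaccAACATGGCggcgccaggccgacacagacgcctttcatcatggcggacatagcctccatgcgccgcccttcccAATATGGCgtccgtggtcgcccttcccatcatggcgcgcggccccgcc
Prkcsh: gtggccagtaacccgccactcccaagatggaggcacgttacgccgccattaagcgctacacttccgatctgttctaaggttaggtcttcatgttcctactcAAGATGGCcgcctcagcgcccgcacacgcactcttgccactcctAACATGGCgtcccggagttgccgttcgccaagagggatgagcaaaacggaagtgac

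The other 4 of the 6 highest regions with a core are shown as 30-base windows at chr10:79132177-79132206 (Gm16517, plus strand), chr7:128851013-128851042 (Usp31, a deubiquitinase gene, minus strand), chr10:61534575-61534604 (Gm5424, plus strand) and chr9:123216861-123216890 (Scp2-ps2, minus strand). The last pair lies within pseudogene exons:
Gm16517: tgcccccaacaAAGATGGCggcagtggaga
Usp31: ttcccacagtcAATATGGCggcctcgcagc
Gm5424: gaccaacatcaAAGATGGCacaacccgcac
Scp2-ps2: cttcaaagtgaAAGATGGCcctggcggcaa

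The ZBTB33 palindrome was searched as CTCGCGAGA on both strands, and where a T precedes it the matches of both strands overlap. The 6 highest regions with a match were at Akap11 (a protein kinase A anchor, chr14:78936682-78936710, minus strand), Supt5h (a transcription elongation factor, chr7:29123773-29123801, minus strand), Mapk14 (the p38 alpha kinase, chr17:28828204-28828232, plus strand), Tcf25 (chr8:125897575-125897603, plus strand), Arf3 (a small GTPase, chr15:98593673-98593701, minus strand) and Thap1 (a THAP zinc finger factor, chr8:27268645-27268673, plus strand):
Akap11: acggggtcgtTCTCGCGAGAggtgcgacg
Supt5h: cgcgccagtTCTCGCGAGAgagcgctcag
Mapk14: cgtccctctTCTCGCGAGAtctgccggcc
Tcf25: agggcccgacTCTCGCGAGAgctccctgg
Arf3: ggtgatgggTCTCGCGAGAactgccgctc
Thap1: gagccgagtcCTCGCGAGAggtgaggctg

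The YY1 core occurred more often at FGF19 promoter peaks that were common to both groups than at FGF19 promoter peaks without a vehicle partner. A core lay within 100 bp of the summit in 64 of 473 common FGF19 peaks (13.5%, 95% Wilson interval 10.7 to 16.9) and in 150 of 2094 FGF19-only promoter peaks (7.16%, 6.14 to 8.35). The difference was 6.37 percentage points (95% Newcombe interval 3.34 to 9.90), and its interval also left out 0 at the 99.7% level that allows for the 17 sequences compared. In the vehicle list the shares were 14.6% of 472 common peaks and 10.1% of 625 vehicle-only peaks, and the difference of 4.54 points (0.64 to 8.61) left out 0 at the 95% level but not at the 99.7% level. Among windows of the same length at the TSSs of all 22350 protein-coding genes, 5.70% held a core. At least 2 cores were present in 11 of the 473 common FGF19 peaks (2.33%) and in 4 of the 2094 FGF19-only peaks (0.19%), a comparison added after the data were seen, whose difference of 2.13 points had a 99.7% interval of 0.68 to 5.23. In the vehicle list the shares were 3.18% and 1.44%, and the interval of their difference included 0 (1.74 points, -1.05 to 5.24). With a window of 50 bp on each side of the summit the FGF19 difference in the share with any core was 2.90 points, and its 99.7% interval (-0.17 to 7.32) included 0.

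The ZBTB33 palindrome showed the same ordering at lower shares. It was found in 19 of 473 common FGF19 peaks (4.02%, 2.59 to 6.19) and in 30 of 2094 FGF19-only peaks (1.43%, 1.01 to 2.04), a difference of 2.58 points (1.03 to 4.80) that also left out 0 at the 99.7% level. In the vehicle list 25 of 472 common peaks (5.30%) and 18 of 625 vehicle-only peaks (2.88%) held it, and the difference of 2.42 points (0.08 to 5.04) passed only at the 95% level. All protein-coding TSS windows held it in 0.69% of cases. When only peaks with a fold enrichment of at least 4 were kept and common peaks defined anew, the FGF19 difference was 1.76 points. Its 99.7% interval of -1.04 to 9.28 includes 0. A peak whose partner fell below the limit then counted as FGF19-only, so this is not the same comparison at greater height. Against FGF19-only peaks at or above the members' lower quartile of fold enrichment, a comparison also added after the data were seen, the YY1 core difference was 6.24 points (99.7% interval 1.67 to 11.9) and that of ZBTB33 2.63 points (0.36 to 6.32).

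**Figure D1:**
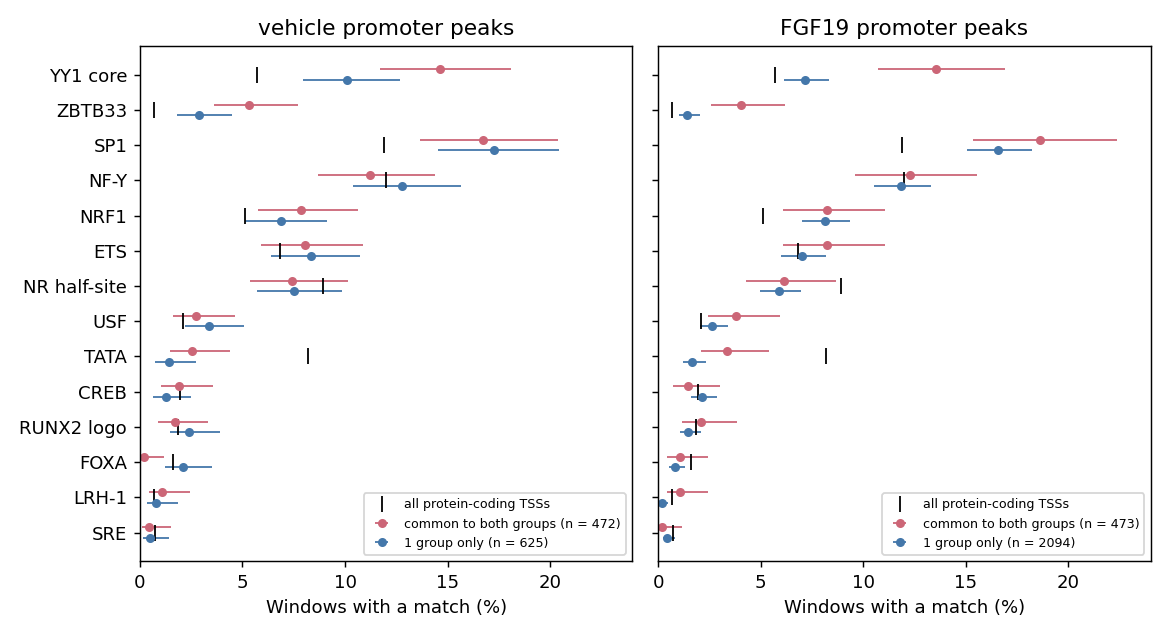
Share of summit windows (100 bp on each side) with a match to each of 14 sequences (x axis, percent) at vehicle (left) and FGF19 (right) promoter peaks. Points are shares, bars are 95% Wilson intervals, red marks peaks common to both groups, blue marks peaks of 1 group only and black ticks mark all protein-coding TSS windows. The YY1 core (13.5% against 7.16% in the FGF19 list) and ZBTB33 (4.02% against 1.43%) separate, while SP1, NF-Y and NRF1 overlap.

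No other sequence of the 17 differed at the 99.7% level in either list. The forkhead sequence TGTTTAC was less frequent in the vehicle list at the 95% level only, in 1 of 472 common and 13 of 625 vehicle-only peaks (-1.87 points, -3.32 to -0.57), while the FGF19 difference was 0.25 points (-0.53 to 1.67). The SP1 GC box (CCCCGCCCC) lay in 18.6% of common FGF19 peaks and 16.6% of FGF19-only peaks, a difference of 2.03 points (95% interval -1.61 to 6.09). For NF-Y (ATTGGC) the difference was 0.42 points (-2.61 to 3.94) and for NRF1, searched by its palindromic consensus, 0.13 points (-2.36 to 3.16). The nuclear receptor hexamer AGGTCA was in 7.42% of common vehicle peaks and 6.13% of common FGF19 peaks, next to 8.91% of all protein-coding TSS windows, and differed from the peaks of 1 group only by -0.10 (-3.20 to 3.17) and 0.26 points (-1.87 to 2.96). The longer LRH-1 type site CAAGGTCA, which contains that hexamer, lay in 5 common peaks of each list and was more frequent than among FGF19-only peaks at the 95% level only (0.87 points, 0.19 to 2.26). LRH-1 is a nuclear receptor through which SHP acts at bile acid genes. The common peaks at Apob and Pck1 held this site at both summits, while those at the bile acid genes Cyp8b1 and Slc27a5 held it at neither. The TATA box (TATAAA) was in 3.38% of common FGF19 peaks and 1.67% of FGF19-only peaks, again at the 95% level only (1.71 points, 0.27 to 3.81), compared with 8.21% of all protein-coding TSS windows. The HNF1, C/EBP and HNF4 sequences had no match in the 473 common FGF19 windows, with a 95% Wilson upper limit of 0.81%. They lay in 0.00%, 0.13% and 0.25% of all protein-coding TSS windows, shares below that limit, so the absence of matches does not set the common peaks apart from these windows.

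Both sequences lay mostly upstream of the start site. The 75 YY1 cores at common FGF19 peaks had a median position of -58.5 bp (quartiles -112.5 and 24), and 34.7% (24.9 to 45.9) were downstream of the TSS. They followed the strand of the nearest gene in 45 of 75 cases, an interval of 48.7% to 70.3% that includes an even split. ZBTB33 matches had a median position of -49 bp in the FGF19 list and -31.5 bp in the vehicle list. An upstream placement was not particular to these sequences. In the FGF19 list 17.3% of NRF1, 18.3% of SP1, 20.0% of NF-Y and 46.7% of nuclear receptor hexamer matches lay downstream. A core was present at 1 or both summits of 86 regions, and at both in 45. Fold enrichment was higher with FGF19 in 36 of those 86 (41.9%, 32.0 to 52.4) and in 195 of the 381 regions without a core (51.2%, 46.2 to 56.2). Of the 20 regions with the highest mean log2 fold enrichment, 6 had a core. Genes of transcription factors and coregulators with a common promoter peak included Yy1 itself, whose peak lay in an intron with a core at both summits, Thap1, Hcfc1, which encodes a coregulator that binds THAP proteins, and Ctcf.

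Peak height at the common promoters had nearly the same median in both groups. Because a peak had to be called in both lists to be a member, heights are given as a description. Fold enrichment is the ratio of ChIP pileup to the local background that MACS2 estimates from the input. Its median was 4.15 with vehicle (quartiles 3.43 and 5.10, range 1.60 to 24.4) and 4.11 with FGF19 (3.42 and 4.96, range 1.68 to 28.5). The median log2 ratio of FGF19 over vehicle was -0.01 (quartiles -0.38 and 0.32), and 231 of 467 regions (49.5%, 45.0 to 54.0) were higher with FGF19. Fold enrichment was at least 1.5-fold higher with FGF19 at 45 regions (9.64%), against a background of 9.44% over all 678 common regions, and at least 1.5-fold lower at 67 (14.3%), against 14.0%. Both shares were near the background, of which these regions are a part. Counting at least 2-fold, 1 region was higher and 16 were lower. On pileup scaled to the number of filtered ChIP tags, the summit was higher with FGF19 in 71.5% of regions (67.3 to 75.4). The even split thus holds for fold enrichment and not for this scale, which divides by the smaller FGF19 library. Pileup also depends on the fragment length used by MACS2, 260 bp with FGF19 and 240 bp with vehicle, for which this scale makes no allowance.

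**Figure D2:**
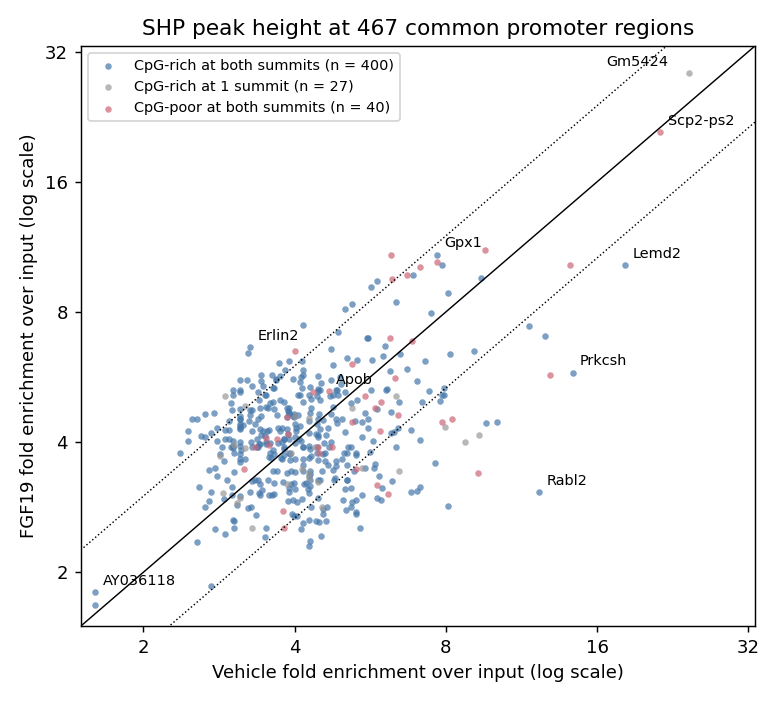
Fold enrichment over input at the 467 common promoter regions, vehicle on the x axis and FGF19 on the y axis, both on log scales, coloured by CpG class of the summit windows. The solid line marks equal height and the dotted lines a 1.5-fold difference. The 355 regions between the dotted lines make up 76.0%, and Gm5424 and Scp2-ps2 stand at the top in both groups.

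The order of the regions by height was only loosely shared between the groups. Across the 467 regions, Spearman's rho between vehicle and FGF19 was 0.26 for fold enrichment, 0.65 for pileup and 0.44 for the input background, where the points share their libraries and are not independent replicates. At the 205 common regions with no promoter peak the same measures gave 0.66, 0.87 and 0.53, and their fold enrichment was higher, with medians of 5.68 and 5.52. The SD of the log2 ratio was 0.49 for fold enrichment, 0.36 for pileup and 0.46 for the input background. Because fold enrichment is the ratio of pileup + 1 to input background + 1, regions chosen by that ratio tend to move in both, and the following counts are a description. Of the 45 regions with at least 1.5-fold higher fold enrichment, 31 had a higher pileup and 44 a lower input background with FGF19, and 5 and 21 of them by at least 1.5-fold. Of the 67 that were lower, 52 had a lower pileup and 61 a higher input background, and 15 and 36 by at least 1.5-fold. The part of the input libraries in these differences was not tested.

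**Figure D3:**
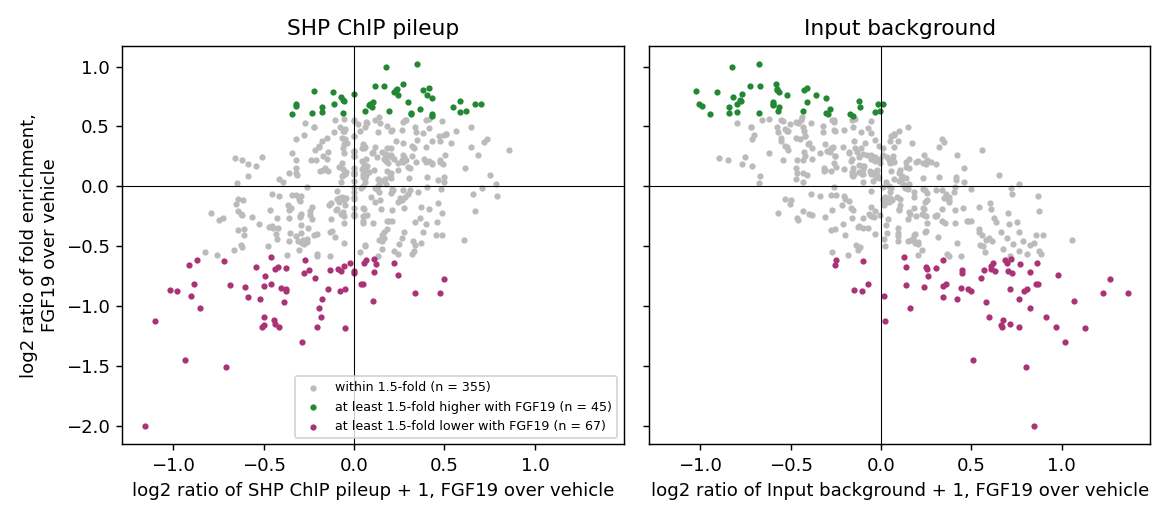
log2 ratio of fold enrichment, FGF19 over vehicle (y axis), against the log2 ratio of its ChIP pileup + 1 (left) and of its input background + 1 (right) at the 467 regions. Regions with at least 1.5-fold higher fold enrichment (green, 45) lie almost all left of 0 for the input background, and those with lower (purple, 67) lie mostly right of it.

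The 10 highest regions by mean log2 fold enrichment were of several kinds. Lemd2 was 18.2 high with vehicle and 10.3 with FGF19, with pileups of 118 and 73 on input backgrounds of 5.53 and 6.19, so its ChIP pileup was lower with FGF19. The promoters of Mapkapk5, a MAP kinase-activated kinase gene (12.6 and 7.03), and of Ankle2, which encodes a nuclear envelope protein (11.7 and 7.44), held no YY1 core, and those of Gm16517 (9.41 and 9.60) and Prkcsh did. Gpx1, the cytosolic glutathione peroxidase, had 2 member regions, both exonic, at 7.70 and 10.8 and at 9.11 and 6.49. B430119L08Rik (9.56 and 11.1), Trf and a pair of pseudogenes made up the rest and are described below. Among the 5 longest regions, Akt1s1 (1169 bp), whose product is a substrate of Akt, had a YY1 core at both summits and heights of 7.19 and 4.96, and the lincRNA 1600020E01Rik (1237 bp) had heights of 5.72 and 4.03.

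The deepest fall was at Rabl2, a Rab-like GTPase gene. The vehicle peak there was 12.3-fold over input and the FGF19 peak 3.06-fold, with pileups of 48 and 21 and input backgrounds of 3.00 and 6.19. Both ChIP and input thus moved there. The other members of the 5 largest falls were Polr2e, a subunit shared by the RNA polymerases (8.07 and 2.84), the nucleoporin gene Nup85 (9.28 and 3.40), Prkcsh (14.3 and 5.79) and the cyclin F gene Ccnf (7.01 and 3.09). The pileup at Ccnf was 27 with vehicle and 26 with FGF19, while its input background was 3.00 and 7.74, so the difference in height at Ccnf lay in the input. The largest rise was at Erlin2, which encodes an endoplasmic reticulum membrane protein, from 3.26 to 6.62, with pileups of 21 and 27 and input backgrounds of 5.74 and 3.23. It was followed by 2310028O11Rik (3.22 and 6.43), which carries a ZBTB33 match at both summits, the mitochondrial ribosomal protein gene Mrpl51 (2.50 and 4.52), the exon junction complex helicase gene Eif4a3 (4.16 and 7.45) and BC005624 (3.12 and 5.56).

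The tallest pair of common promoter peaks stood over exons of annotated pseudogenes. Gm5424 reached 24.4-fold over input in the vehicle list and 28.5-fold in the FGF19 list. Its pileup was 72 and 81, and its input background was at the lowest level of each list, 1.99 and 1.87. That level is about the pileup expected genome-wide, 1.99 and 1.87. It is thus a floor of the background estimate and not an input depth measured at the locus, and the heights there rest on it. Its FGF19 peak of 1444 bases aligned over 1436 bases at 99.4% identity to the spliced mRNA of Ass1, the urea cycle enzyme argininosuccinate synthase, whose own gene lies elsewhere. Scp2-ps2 came next, at 21.4 and 20.9, and aligned over 573 bases at 99.7% to the mRNA of Scp2, a peroxisomal sterol carrier. In all, 14 member regions matched a coding mRNA of a gene elsewhere over at least 100 bases at 90% identity or more, and 7 of them at 98% or more. Only 6 members had an input background at this floor in both groups, and all 6 were among those 14: Gm5424, Scp2-ps2, Gstm2-ps1 (Gstm1, 98.01%), Gm7204 (Prdx1, 97.3%), Gm5096 (Bhmt, 100%) and Gm9786 (Oaz1, 100%). Heights at such copies are uncertain: tags of a copy and of its source gene are hard to tell apart, and whether they came from genomic DNA of the copy was not tested. The peak at B430119L08Rik aligned to the mRNA of Serpina1b, a plasma protease inhibitor of a multigene family, over 260 bases at 95.8%. At the other end, AY036118, annotated as a pseudogene, had the largest pileup of all members (357 and 440) on an input background of 222 and 245, which left a fold enrichment of 1.60 and 1.80.

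Most common promoter peaks lay in CpG-rich sequence. With a window called CpG-rich when its GC content was at least 50% and its observed over expected CpG ratio at least 0.6, 86.4% of common vehicle peaks and 89.2% of common FGF19 peaks qualified, against 48.4% of all protein-coding TSS windows. Compared with peaks of 1 group only, the common share was 5.32 points higher in the vehicle list (0.88 to 9.61) and 2.90 points lower in the FGF19 list (-6.20 to -0.13), so the lists went opposite ways. The vehicle difference turned to -8.92 points (-16.9 to -1.75) when only peaks with fold enrichment of at least 4 were kept. Common peaks were defined anew among these, so peaks that lost their partner moved to the comparison group.

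The CpG-poor members differed from the CpG-rich ones in where the summit lay and in which genes they marked. At 40 regions both summits were CpG-poor and at 400 both were CpG-rich. The FGF19 summit lay in an exon at 31 of the 40 (77.5%, 62.5 to 87.7) and at 190 of the 400 (47.5%, 42.7 to 52.4). Among all CpG-poor promoter peaks, 68.6% of the 51 common FGF19 summits and 37.0% of the 165 FGF19-only summits were exonic, a difference of 31.7 points (95% interval 16.0 to 44.7), and in the vehicle list the difference was 21.2 points (6.05 to 35.1). Of the 30 CpG-poor regions exonic at both summits, 6 matched an mRNA of another gene. Without all peaks with such a match, the differences were 28.4 points (11.9 to 42.6) in the FGF19 list and 16.2 points (0.41 to 31.1) in the vehicle list. These exon comparisons within the CpG-poor class were added after the data were seen. Over all CpG classes the share of exonic summits differed from that of peaks of 1 group only by 1.81 points (-4.13 to 7.74) in the vehicle list and by -1.70 points (-6.67 to 3.27) in the FGF19 list. CpG-poor common summits also reached further into the gene: 37.5% of 64 vehicle and 35.3% of 51 FGF19 summits lay more than 200 bp downstream of the TSS, compared with 8.58% and 11.1% of CpG-rich common summits and with 10.17% and 17.6% of CpG-poor summits of 1 group only.

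**Figure D4:**
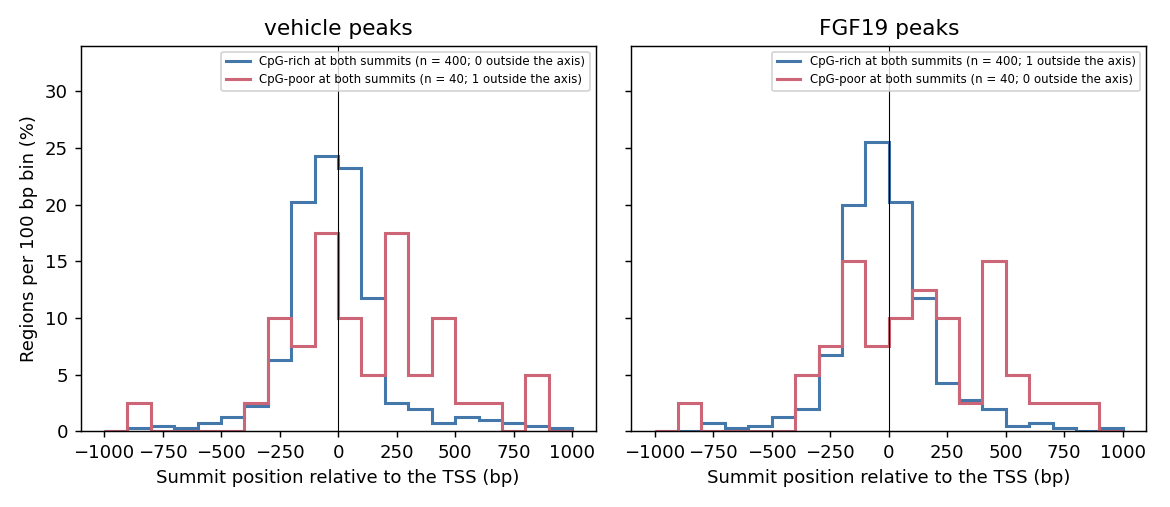
Position of the summit relative to the nearest TSS (x axis, bp, positive values downstream) for vehicle (left) and FGF19 (right) peaks, as percent of regions per 100-bp bin. The 400 regions that are CpG-rich at both summits centre on the TSS, and the 40 CpG-poor regions spread into the gene body.

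Genes of hepatocyte function were a larger share of the CpG-poor than of the CpG-rich regions, once the gene lists had been put into 2 classes after the data were seen. Genes from the 10 lists of liver functions (plasma proteins, coagulation, bile acid, sugar, amino acid, fatty acid and detoxification genes) stood at 14 of the 40 CpG-poor regions (35.0%, 22.1 to 50.5) and at 10 of the 400 CpG-rich regions (2.50%, 1.36 to 4.54). The 14 regions stood at 12 different genes, 3 of the regions at Trf and 1 at the copy Gstm2-ps1, so they are not independent. Among CpG-poor promoter peaks, such a gene was present at 17 of 51 common and 16 of 165 FGF19-only peaks (23.6 points, 11.02 to 37.8), and at 16 of 64 common and 6 of 118 vehicle-only peaks (19.9 points, 9.35 to 32.04). Genes from the 12 lists of general cell functions stood at 1 of the 40 (2.50%) and at 57 of the 400 (14.2%, 11.2 to 18.02). How the listed genes divide by CpG class over all protein-coding promoters was not counted. The contrasts between CpG-poor and CpG-rich regions therefore cannot be called particular to common peaks. Transferrin, Trf, the plasma iron carrier, had 3 separate member regions on chromosome 9, each with both summits in an exon. Their nearest annotated starts were 103124393, 103125005 and 103130772. On this minus-strand gene, 103124393 and 103125005 lie downstream of 103130772, inside the gene, and qualify because any transcript start counted. The CpG-poor comparisons were not repeated with TSSs of protein-coding transcripts only. The vehicle and FGF19 peaks were 14.1 and 10.3 high at 103124236 to 103124700, 12.9 and 5.71 at 103125153 to 103125564, and 6.24 and 9.52 at 103130091 to 103130516. The group higher thus differed among regions of 1 gene. Apob, the structural protein of VLDL, had the longest merged region of all members at 1890 bp, with fold enrichments of 4.67 and 5.24 and pileups of 35 and 33. Its summits lay 59 and 130 bp downstream of the TSS. The peak at Apoa1, the main HDL protein, was 6.87 and 6.85 high, and that at Ahsg, which encodes fetuin-A, 7.09 and 10.19. Apoc1, a small apolipoprotein of VLDL and HDL (6.89 and 9.72), vitronectin, Vtn (7.88 and 10.3), and the fibrinogen gamma chain gene Fgg (6.43 and 4.62) also had exonic summits in both groups. Of these, Fgg was among the 40 CpG-poor regions, and Apoc1 and Vtn were not. The detoxification list gave 4 of 107 (3.74%, 1.46 to 9.22), which includes the background of 2.40% of protein-coding genes. Its members include the copy Gstm2-ps1 and Ugt2b1, a glucuronosyltransferase gene of a multigene family whose values are uncertain for that reason (3.18 and 3.47).

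Bile acid genes contributed 2 of 31 listed members, read against a background of 2.40% of protein-coding genes (537 of 22350) with a TSS at a common promoter peak. Cyp8b1, the sterol 12-alpha-hydroxylase and a textbook SHP target, had peaks of 4.47 (vehicle) and 3.76 (FGF19), with a pileup of 21 in both groups. Its input background was 3.92 and 4.84, and both summits lay in its exon, 142 and 100 bp downstream of the TSS. The pileups are not scaled to library size, and the FGF19 library was the smaller. In standard ChIP assays, the paper found that FGF19 raised SHP binding more at Cyp8b1 than at Cyp7a1. Slc27a5, the bile acid-CoA ligase and very long chain fatty acid transport protein, was 4.00 and 6.52 high on pileups of 26 and 28. The list of sugar metabolism gave Pck1, the gluconeogenic PEP carboxykinase (3.51 and 4.09, pileups 26 and 32), alone among 27. Gnmt, the glycine methyltransferase, was the only one of 46 urea cycle and amino acid genes and had 2 regions, at 7.87 and 4.46 and at 5.82 and 2.97. Fatty acid genes were Fasn, the fatty acid synthase (4.32 and 3.72), the elongase gene Elovl2 (3.80 and 3.74) and Ppara (2.91 and 4.06), 3 of 45.

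Signalling and transcription factor lists gave small counts, without a share below the background of 2.40% of protein-coding genes. The nuclear receptor share was 5.88% (2.02 to 15.9), an interval that includes the background. The clock share was 9.09% (2.53 to 27.8), an interval above it. The FGF receptor and ERK list included the kinase genes Map2k2 (4.55 and 4.50) and Prkcz (3.11 and 5.23). The nuclear receptor list gave 3 of 51: Ppara, the mineralocorticoid receptor gene Nr3c2 (3.64 and 4.78) and the glucocorticoid receptor gene Nr3c1, which had 2 regions (6.29 and 4.22, 3.86 and 4.29), the taller with a YY1 core at both summits. Cebpa, a hepatocyte differentiation factor, was 3.43 and 5.70 high. The clock genes Cry1 (4.76 and 3.45) and Tef (3.81 and 3.86) were 2 of 22.

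Several lists had an interval above the 2.40% background. Among general cell functions these were splicing factors, 9 of 78 (11.5%, 6.19 to 20.5), RNA polymerase and general transcription factor genes, 10 of 103 (9.71%, 5.36 to 17.0, with 4 polymerase subunits, 2 TFIID subunits and 4 genes of TFIIA, TFIIE, TFIIH and TFIIIC, and no Mediator gene), aminoacyl-tRNA synthetases, 3 of 35, proteasome genes, 4 of 50, oxidative phosphorylation genes, 7 of 93, and chaperones, 6 of 87. The synthetases fell to 1 of 35 when a reciprocal overlap of at least 50% was required. The ubiquitin list, 6 of 110, was above the background only with Usp6nl, a Rab GTPase-activating protein gene matched by its name, and without it 5 of 109 gave an interval of 1.98 to 10.29. The lists with an interval above the background also included apolipoproteins, 3 of 14 (21.4%, 7.57 to 47.6), plasma carriers and acute phase proteins, 4 of 37 (10.8%, 4.29 to 24.7), and the clock list, 2 of 22. Of the oxidative phosphorylation names, Cox4nb is a neighbour of Cox4i1 and not a subunit. Of the proteasome names, Psmg2 is an assembly chaperone gene and not a subunit, and the interval without it was not computed. Srsf3, a serine- and arginine-rich splicing factor gene, was 5.33 and 6.21 high, and Taf9, a TFIID subunit gene, 5.19 and 8.35. The peak between Ndufb5, a complex I subunit gene, and the mitochondrial ribosomal gene Mrpl47 was 4.93 and 5.65 high and had a YY1 core at both summits. Serpins (0 of 60), P450 families 2 to 4 (0 of 75), core histones (0 of 76) and DNA repair genes (0 of 71) had no gene at the 467 regions. Their Wilson upper limits of 6.02%, 4.87%, 4.81% and 5.13% include the background. Cyp2e1, a P450 gene of family 2, had an FGF19 peak just inside the 1 kb limit but lay at none of these regions. Small RNA genes (3 of 3816) were the 1 list with an interval below the background, which counts protein-coding genes. Intervals were taken list by list over 32 lists, and neighbouring genes that share a region are counted in each list.

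Common peaks were more often at divergent promoters in the FGF19 list. TSSs of both strands lay within 1 kb of the centre, here called a divergent promoter, at 25.8% of common and 20.9% of FGF19-only peaks, a difference of 4.92 points (0.78 to 9.38), and at 25.2% and 21.3% in the vehicle list (3.93 points, -1.08 to 9.03). The FGF19 difference fell to 0.20 points (-6.13 to 7.77) when only peaks with fold enrichment of at least 4 were kept. With a -log10 q-value of at least 3 it fell to 2.65 points (-1.88 to 7.62). At both limits common peaks were defined anew, so peaks that lost their partner moved to the comparison group. Summits of common FGF19 peaks were downstream of the TSS in 43.6% of cases, 5.83 points less often than FGF19-only summits (-10.7 to -0.84), while the vehicle shares were 43.9% and 43.0%. That FGF19 difference was -6.75 points (-15.0 to 1.69) at fold enrichment of at least 4, with common peaks again defined anew.

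Summits of both groups had a median gap of 66 bp within a region (quartiles 26 and 136.5). Peaks had to overlap to be members, so the gap is given as a description. The gap was at most 50 bp at 194 regions (41.5%) and over 200 bp at 64. At the 205 common regions with no promoter peak the median gap was 39 bp, and 56.6% had at most 50 bp. Among the members, the gap was smaller at the 40 CpG-poor regions (median 31 bp) than at the 400 CpG-rich ones (68 bp). FGF19 peaks were longer, with a median of 430 bp against 355 bp, and the merged regions had a median of 530 bp. The fragment length used by MACS2 was also longer with FGF19, 260 bp against 240 bp. The shortest member peaks of each list had these same lengths. The part of this setting in peak length was not tested.

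The peaks next to the limits of the definition are given as a description. Just inside the 1 kb limit were the FGF19 peaks at Brd2 (933 bp, fold enrichment 4.27) and Cyp2e1 (945 bp, 4.55), and just outside it those at Sephs2 (1023 bp, 4.96) and Gm12744 (1072 bp, 4.44). In the vehicle list the peaks just inside were at Gm12744 (945 bp, 5.83) and a U6 gene (937 bp, 5.99), and the nearest outside was at Hpd (1001.5 bp, 3.56). The smallest overlap, 1 bp, was at Smad2 and Gm12744, and the promoter peaks that missed by least were 7 bp apart at 5031439G07Rik and 25 bp apart at Btbd6.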

How the data were processed

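SHP ChIP and input libraries of mouse liver were sequenced by the authors, 1 pooled ChIP library per group. Per the labels, reads were processed with CASAVA 1.8.2, Bowtie 1.0.0 and MACS2 2.0.10.20130501 against mm9. Per the file headers, peaks were called at a q-value cutoff of 0.05, 1 tag per position was kept and the larger data set was scaled to the smaller. The deposited lists give, for each peak, a summit pileup (signal), a fold enrichment against input and -log10 p- and q-values. The input background was computed here as (pileup + 1) divided by fold enrichment, minus 1. No counts per replicate were used, and no differential test was possible.

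Peak overlaps, TSS distances, motif matches on both strands and intervals were computed in Python 3.11.15 with pandas 2.3.3 and scipy 1.17.1, on the mm9 genome and GENCODE M1 (95495 transcripts), and member peaks were aligned to coding transcripts with blastn 2.17.0. Windows of 100 bp on each side of the summit were searched for 17 sequences. Shares have Wilson intervals and differences of shares have Newcombe intervals, at 95% and, for the sequences, at 99.7% (Bonferroni over 17). The motif and interval code was tested on simulated data. FGF19-only windows on the mitochondrial genome were left out of sequence comparisons. The members, sequences and gene lists were chosen with earlier results of these data known. Genes named were the 10 highest regions by mean log2 fold enrichment, the 5 largest rises and falls, the longest regions, the highest regions with a sequence that differed, the highest genes of each list and the regions next to the limits. Named outside this rule, after their values were seen, were Yy1, Thap1, Hcfc1, Ctcf, AY036118's pileup and the single genes of short lists. The count of 1 gene list is not reported here.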

Additional observations from a re-analysis of the deposited data

How the results depend on the processing

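No paired analysis was possible because each group has 1 ChIP library, and for the same reason no replicate was left out. The number of common promoter peaks depended on strictness: with summits at most 100 bp apart 309 vehicle and 309 FGF19 peaks (307 regions) remained, with fold enrichment of at least 4 in both lists 155 and 152 (150 regions), and with the FGF19 list shortened to the size of the vehicle list 293 and 293 (290 regions). The other 6 settings of overlap, q-value, distance and TSS type kept the counts within 1.5 times. Counts of 1.5-fold differences moved with the measure: 20 regions rose and 36 fell by pileup, 143 and 139 by -log10 q-value, and scaled to filtered ChIP tags 12 fell, with 71.5% of regions higher with FGF19. The 45 rises became 27 with summits at most 100 bp apart and 26 at a -log10 q-value of at least 3. Limits on fold enrichment or q-value were applied before peaks were paired, so a peak whose partner was lost counted among peaks of 1 group only. Among peaks with fold enrichment of at least 4, the FGF19 differences were -6.75 points for downstream summits, 0.20 for divergent promoters and 1.76 for ZBTB33. None of these intervals left out 0, and the CpG-rich difference of the vehicle list reversed to -8.92 points. At a -log10 q-value of at least 3, the divergent difference of the FGF19 list was 2.65 points and the CpG-rich difference of the vehicle list 1.33. With 50 bp on each side of the summit, the FGF19 differences were 2.90 points for the YY1 core and -0.96 for CpG-rich windows, and both intervals included 0. Within CpG-poor windows, a setting chosen after seeing the data, the difference in exonic summits was 21.2 points (vehicle) and 31.7 points (FGF19), which over all windows had been 1.81 and -1.70. Without peaks matching another gene's mRNA they were 16.2 and 28.4 points. With a reciprocal overlap of at least 50%, the translation factor and synthetase lists fell from 3 genes to 1 and the chromatin list from 4 to 2, and with the nearest gene only, small RNA genes fell from 3 to 1. The cause of these changes was not tested. Sequences with few matches, such as LRH-1 with 5 in each list, are limited by the number of peaks.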
